A study of Homo sapiens with 6 samples.

Results

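The NRF2 antioxidant and glutathione genes are 36 genes of 26036 that the array names, read by 64 of its 41000 probes. Members were found by their symbol among the non-control probes, and each gene is given by its brightest probe, the one with the highest mean intensity over both dyes of all 6 arrays. NRF2, encoded by NFE2L2, is a transcription factor that KEAP1 marks for degradation until oxidants or electrophiles modify KEAP1. NRF2 then pairs with a small MAF protein such as MAFG, competes with the repressor BACH1, and binds the antioxidant response element in front of genes that make glutathione and NADPH, store iron and reduce reactive carbonyls. In ovarian carcinoma cells this program is known as a line of defence against oxidants and platinum drugs.

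The arrays compared RNA of stable clones with altered Hic-5, a focal adhesion adaptor encoded by TGFB1I1, in the ovarian adenocarcinoma cell lines SKOV3 and A2780s. SKOV3 cells were transduced with pLKO.1-puro carrying an shRNA against Hic-5 and selected with puromycin, giving the clones sh-S1 and sh-S2, and their Ctrl clone carried a scramble sequence in the same vector. A2780s cells were stably transfected with pCMV-Hic-5 and selected with neomycin, and their Ctrl clone carried the empty pCMV6 vector. Each RNA came from 1 clone, each clone was set against the Ctrl of its own line on 2 dye-swapped arrays, and both SKOV3 clones were set against the same Ctrl RNA. The values therefore describe these clones, and in SKOV3 n = 2 clones while in A2780s n = 1.

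The targeted gene was read on every array first, with log2 ratios of clone over Ctrl. TGFB1I1 stood at -0.16 and 0.12 on the sh-S1 arrays and at -0.11 and 0.28 on the sh-S2 arrays, a mean of 0.03 (limma, adjusted p = 0.855), so neither RNA labelled as a knockdown showed a lower TGFB1I1 signal, and every direction given for sh-S1 and sh-S2 rests on the labels. The array signal differs here from the paper, whose methods state that clones with inhibited Hic-5 were checked by RT-PCR and Western blot. Those measurements were not analysed here. In A2780s, TGFB1I1 was higher in pCMV-Hic-5 on both arrays (4.05 and 2.60), and the A2780s Ctrl read 4.56 log2 units above the SKOV3 Ctrl. By Western blot the paper reports the reverse order for the protein, strong in SKOV3 and rather low in A2780s. The reason for these differences was not tested. Among 6 tested markers of ovarian carcinoma, PAX8, KRT7, KRT8 and KRT18 were called lower in sh-S1 and sh-S2 (list median -2.17), and the same 4 of 7 were lower in the A2780s Ctrl than in the SKOV3 Ctrl. KRT7 entered the latter comparison through the SKOV3 Ctrl alone, where it is high, so its lower value there is a description. EPCAM, CDH1 and MSLN were too dim to be tested in SKOV3. In A2780s, 1 of 5 tested, KRT18, was called higher in pCMV-Hic-5 (0.59). Of the fibroblast markers, 1 of 4 tested was called in SKOV3 (COL3A1, 3.65 higher) and 2 of 5 in the A2780s Ctrl (COL3A1, 3.58, and PDGFRB, 1.55), while COL1A1, COL1A2 and DCN lay between -0.14 and 0.16 in SKOV3. PDGFRB was well above background on no SKOV3 Ctrl array and entered through the A2780s Ctrl alone. A higher value was thus built into its entry, and its difference can be given only as a bound of 1.50. No leukocyte marker was called, and the 3 endothelial markers were too dim to be tested in SKOV3. The part of these markers in the results below was not tested. Cy5 was dim on the SKOV3 arrays, with median net signals of 9.52 to 25.5 against 373 to 530 in Cy3. The dye-swapped arrays of a clone correlated at 0.61 across probes for both clones (0.49 in A2780s). Arrays of sh-S1 and sh-S2 correlated at 0.89 with the clones in Cy5 and at 0.90 in Cy3. Each SD and p-value below comes from 2 clone means averaged over the dyes, and so leaves out the spread between dyes.

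Against the SKOV3 Ctrl, 13 of the 36 members fell and 1 rose. A SKOV3 gene counts as called, here and below, when its adjusted p does not exceed 0.05 and it differs by 2-fold or more. Over all 17488 genes tested, 4.72% were called lower and 3.58% higher. The members that fell belong to cystine import and glutathione synthesis (SLC7A11, GCLM), NADPH supply (TALDO1, ME1), ferritin (FTH1, FTL), the aldo-keto reductases (AKR1C1, AKR1C2, AKR1C3, AKR1B1), carbonyl reduction (CBR1), mitochondrial superoxide removal (SOD2) and the NRF2 partner MAFG. GSTA4 alone rose. The median log2 ratio was -0.62 over the members and 0.01 over all genes tested. A further 11 members passed the adjusted p without reaching 2-fold, and this share (30.6%) was near that of all genes (25.1%). Of the 11, 9 had a negative mean (81.8%), against 48.3% of such genes among all genes tested. All 14 called members kept 1 sign on every SKOV3 array that measured them.

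In A2780s, 12 of the 36 members were higher in pCMV-Hic-5 and none was lower, where called means a mean ratio of at least 1.5-fold with the same direction on both arrays and no test is possible with 1 pair of RNAs. Over all 20197 genes, 3.50% were called higher and 1.50% lower. The members called higher were KEAP1, MAFG and BACH1, SLC7A11 and GCLM, TXNRD1 and SRXN1, ME1, HMOX1 and FTL, and UGDH and OSGIN1. The median log2 ratio over all 36 members was 0.30, against -0.01 over all genes.

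**Figure D1:**
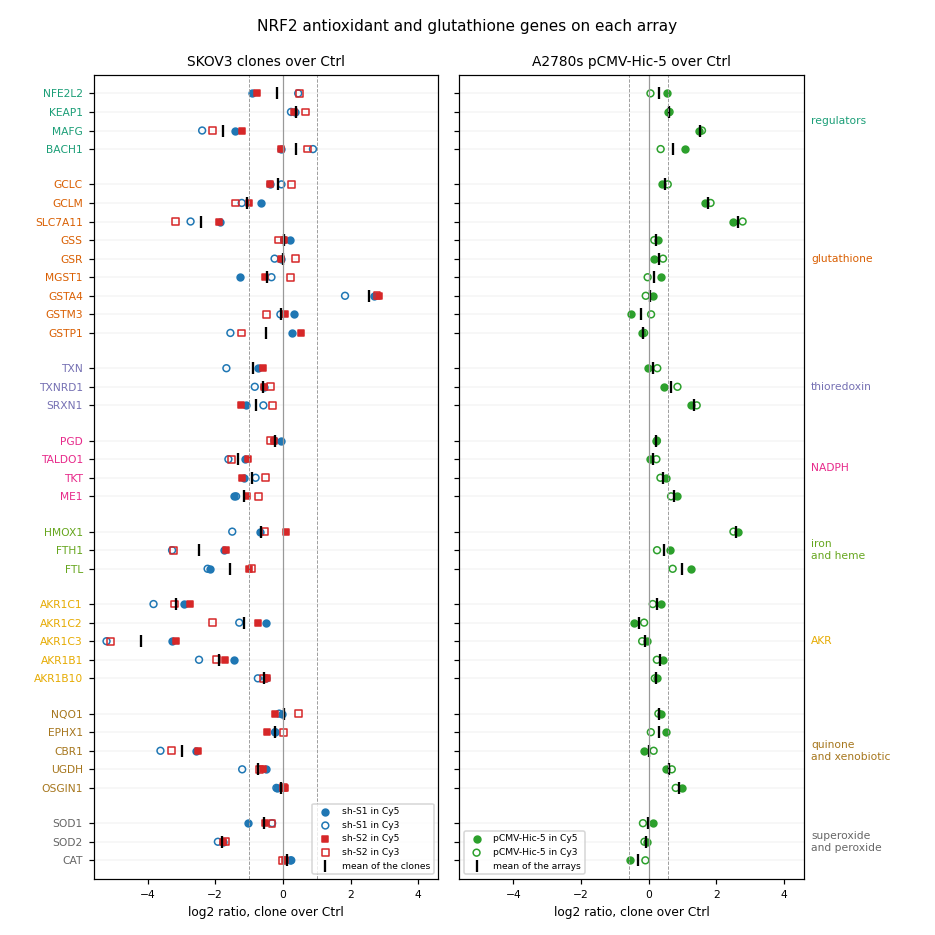
Log2 ratios of clone over Ctrl (horizontal axis) of the 36 members, grouped by role, on the 4 SKOV3 arrays (left) and the 2 A2780s arrays (right). Filled symbols have the clone in Cy5 and open symbols in Cy3, bars are means, and dashed lines mark 2-fold (left) and 1.5-fold (right). The AKR genes lie left of 0 in SKOV3, down to a mean of -4.19 for AKR1C3, while HMOX1 and SLC7A11 stand farthest right in A2780s, at 2.57 and 2.65.

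The calls of the lines, whose comparisons share no RNA, met in 5 members. MAFG, GCLM, SLC7A11, ME1 and FTL were called lower in SKOV3 and higher in A2780s, which is 38.5% of the 13 lower in SKOV3 and 41.7% of the 12 higher in A2780s. Over all genes the same overlap held 59 genes, 7.14% of those lower in SKOV3 and 8.35% of those higher in A2780s. These shares are not on an equal footing. Among the members 13 of 36 were called lower in SKOV3 and 12 of 36 higher in A2780s, against 4.72% and 3.50% of all genes. More shared calls go with such rates, and an overlap beyond them was not tested. The other members called in SKOV3 were not called in A2780s, and the difference between the lines was not tested for any of them.

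**Figure D2:**
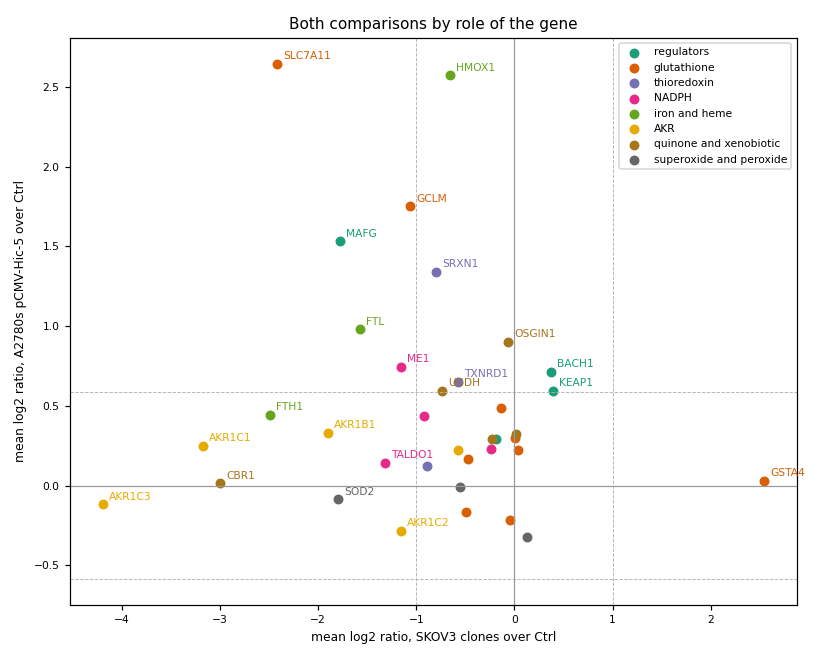
Mean log2 ratio of each member in SKOV3 (horizontal axis) against that in A2780s (vertical axis), coloured by role, with dashed lines at 2-fold and 1.5-fold. MAFG, GCLM, SLC7A11, ME1 and FTL fill the upper left corner, the AKR genes lie near 0 on the vertical axis, and GSTA4 stands apart on the right at 2.54.

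The regulators were read first. NFE2L2 itself gave -0.92 and 0.45 with sh-S1 in Cy5 and in Cy3, and -0.77 and 0.49 with sh-S2, so its sign followed the dye. Its mean of -0.19 in SKOV3 (adjusted p = 0.196, limma) and of 0.30 in A2780s (0.53 and 0.06) was not called. KEAP1, the adaptor that sends NRF2 to degradation, stood at 0.34 and 0.24 for sh-S1 and 0.31 and 0.67 for sh-S2, positive on all arrays but under 2-fold, and at 0.57 and 0.62 in A2780s, a mean of 0.59 that lies at the 1.5-fold limit.

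MAFG, a small MAF partner of NRF2, was the only regulator called in SKOV3. It stood at -1.43 and -2.39 for sh-S1 and at -1.19 and -2.08 for sh-S2, a mean of -1.77 ± 0.19 (SD, n = 2 clones, adjusted p = 9.58e-05, limma), and its other probe gave -1.01. In A2780s MAFG read 1.48 and 1.58. BACH1, the repressor that occupies the same elements, gave -0.06 and 0.89 for sh-S1 and -0.05 and 0.72 for sh-S2, again following the dye, and 1.07 and 0.36 in A2780s. Its other probe gave -0.08 in A2780s, so the BACH1 call rests on 1 of its probes.

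Promoters were at hand for 29 of the 36 members (RefSeq, GRCh38.p14, 250 bases before to 50 after a start site), and those of HMOX1, SLC7A11, GSR, GSS, AKR1B10, FTH1 and SOD1 were not used here. The core of the antioxidant response element, TGACNNNGC on either strand, was in the promoters of 10 of the 29 (34.5%) and of 4384 of all 27305 genes (16.1%). The core of the element that ATF4 shares with C/EBP factors, TGATGNAA, was in none of the 29 and in 4.46% of all genes. With a core this rare and so few promoters, SLC7A11 not among them, the lack of a match cannot be read as a result. Of the called members, GCLM, ME1 and CBR1, lower in SKOV3, held the antioxidant core, as did KEAP1, GCLM, TXNRD1 and ME1, higher in A2780s. GSTA4, which rose in SKOV3, held it too. So did EPHX1, GSTP1, MGST1 and PGD, which were called in no comparison. A link between the core and the calls was not tested. The windows of the first 5 are shown because they carry the element that names the gene set, read along the strand of the gene, with the matched core or its reverse complement in capitals.
GCLM, chr1:93909444-93909476, minus strand: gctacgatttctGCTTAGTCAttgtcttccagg
ME1, chr6:83431168-83431200, minus strand: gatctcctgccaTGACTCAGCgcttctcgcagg
TXNRD1, chr12:104215668-104215700, plus strand: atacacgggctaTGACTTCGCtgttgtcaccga
KEAP1, chr19:10502782-10502814, minus strand: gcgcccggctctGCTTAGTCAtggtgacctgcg
CBR1, chr21:36069853-36069885, plus strand: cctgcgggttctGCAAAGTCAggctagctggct
The cores lie 34 bases before the start site in GCLM, 137 in ME1, 99 in TXNRD1, 31 in KEAP1 and 159 in CBR1. KEAP1 and ME1 each hold 1 further core and TXNRD1 holds 2, not shown. A match describes these letters and not a bound site.

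Of the 9 glutathione genes, 2 fell and 1 rose in SKOV3 and 2 were higher in A2780s. SLC7A11, the cystine carrier that supplies cysteine for glutathione, stood at -1.87 and -2.73 for sh-S1 and at -1.88 and -3.18 for sh-S2. Its mean was -2.41 ± 0.17 (SD, n = 2, adjusted p = 2.49e-05, limma), 5.33-fold lower, and in A2780s it read 2.51 and 2.78, 6.26-fold higher. Its brightest probe lies at chr4:139088834-139088893 (hg19, minus strand) and was well above background on 1 of the 2 sh-S1 arrays, and the other probes gave -1.56 and -0.64 in SKOV3. The probe at -0.64 was well above background on no array of either clone. It entered the test through the Ctrl alone, so its value is limited by the background and does not measure a smaller fall. All 3 SLC7A11 probes were called higher in A2780s, from 1.34 to 2.65. Of these, only the brightest was well above background on both A2780s Ctrl arrays. The others entered there through pCMV-Hic-5 alone, where they are high. A higher value was thus built into their entry, and their values are given as a description.

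GCLM, the modifier subunit of the enzyme that begins glutathione synthesis, gave -0.66 and -1.22 for sh-S1 and -0.99 and -1.39 for sh-S2. Its mean of -1.07 ± 0.18 (SD, n = 2, adjusted p = 0.00067, limma) lay just past 2-fold, and its other probe, at -0.91, lay just inside. In A2780s GCLM read 1.67 and 1.83. GCLC, the catalytic subunit of the same enzyme, was called in neither line, with means of -0.14 and 0.49.

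GSTA4, a glutathione transferase that acts on lipid peroxidation aldehydes, moved the other way. It stood at 2.69 and 1.84 for sh-S1 and at 2.84 and 2.78 for sh-S2, a mean of 2.54 ± 0.39 (SD, n = 2, adjusted p = 7.35e-05, limma), 5.81-fold higher, while pCMV-Hic-5 gave 0.15 and -0.08. GSS, GSR, MGST1, GSTM3 and GSTP1, which finish glutathione synthesis, recycle it or conjugate it, were called in neither line, with means from -0.49 to 0.03 in SKOV3 and from -0.22 to 0.30 in A2780s.

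Of the 3 thioredoxin genes, none was called in SKOV3 and 2 were in A2780s. SRXN1, sulfiredoxin, which repairs overoxidized peroxiredoxins, read 1.26 and 1.42 in A2780s. In SKOV3 its 4 values were -1.08 and -0.58 for sh-S1 and -1.23 and -0.30 for sh-S2, all negative, with a mean of -0.80 that passed the adjusted p (0.0013, limma) but not 2-fold. TXNRD1, thioredoxin reductase, gave 0.45 and 0.86 in A2780s, and in SKOV3 -0.54 and -0.83 for sh-S1 and -0.55 and -0.38 for sh-S2. TXN, thioredoxin, gave -0.73 and -1.67 for sh-S1 and -0.58 for sh-S2, whose other array flagged the spot as an outlier, so its sh-S2 value rests on 1 array.

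All 4 NADPH genes had negative means in SKOV3 and positive means in A2780s, and 2 fell and 1 was higher by the rules. TALDO1, transaldolase of the pentose phosphate pathway, stood at -1.12 and -1.61 for sh-S1 and at -1.03 and -1.52 for sh-S2, a mean of -1.32 ± 0.06 (SD, n = 2, adjusted p = 0.000175, limma), and all 4 of its probes were called lower. In A2780s it gave 0.05 and 0.23. ME1, the cytosolic malic enzyme, gave -1.43 and -1.38 for sh-S1 and -1.06 and -0.73 for sh-S2, a mean of -1.15 ± 0.36 (SD, n = 2, adjusted p = 0.00143, limma), with sh-S2 under 2-fold by itself (-0.90). The other ME1 probes gave -0.95, just inside 2-fold, and -0.12, too dim to be tested. In A2780s ME1 read 0.83 and 0.67, and the means of its other probes were 0.69 (called) and 0.15 (not called). TKT and PGD, the other pentose phosphate enzymes, had means of -0.93 and -0.24 in SKOV3 and of 0.44 and 0.23 in A2780s.

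The iron and heme genes fell in SKOV3 in 2 of 3 cases and were higher in A2780s in 2 of 3, but not the same 2. FTH1, the heavy chain of ferritin, stood at -1.74 and -3.28 for sh-S1 and at -1.69 and -3.25 for sh-S2, a mean of -2.49 ± 0.03 (SD, n = 2, adjusted p = 1.58e-05, limma), 5.61-fold lower. All 5 FTH1 probes were called lower, from -3.74 to -1.46, though ferritin genes have many near-identical pseudogene copies whose transcripts a probe may not tell apart. FTH1 was not called in A2780s, where it gave 0.64 and 0.25.

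FTL, the light chain of ferritin, separated the SKOV3 clones more than any other member. It gave -2.15 and -2.23 for sh-S1 and -1.01 and -0.91 for sh-S2, with no overlap and a gap of 1.23 between the clone means (-2.19 and -0.96), and a mean of -1.58 ± 0.87 (SD, n = 2, adjusted p = 0.00537, limma). All 3 FTL probes were called lower in SKOV3 and higher in A2780s, where the brightest read 1.25 and 0.71. HMOX1, heme oxygenase, which releases iron from heme, stood at -0.68 and -1.5 for sh-S1 and at 0.08 and -0.53 for sh-S2, and its mean of -0.66 ± 0.61 (SD, n = 2, adjusted p = 0.0473, limma) was under 2-fold. In A2780s HMOX1 (chr22:35790122-35790181, hg19, plus strand) read 2.63 and 2.51, 5.95-fold higher and close to SLC7A11.

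Of the 5 aldo-keto reductases, 4 fell in SKOV3 and none was called in A2780s, with subset medians of -1.90 and 0.22. AKR1C3, which reduces prostaglandins, steroids and carbonyls, gave -3.29 and -5.21 for sh-S1 and -3.17 and -5.09 for sh-S2. That mean, -4.19 ± 0.09 (SD, n = 2, adjusted p = 5.38e-06, limma), was 18.3-fold lower and the furthest from 0 among the members. AKR1C1 stood at -2.91 and -3.83 for sh-S1 and at -2.73 and -3.22 for sh-S2, a mean of -3.17 ± 0.28 (SD, n = 2, adjusted p = 1.72e-05, limma), and its other probes gave -3.13 and -1.16. The probe at -1.16 entered the test through the Ctrl alone, where it is high, so its value is given as a description.

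AKR1B1, aldose reductase, gave -1.45 and -2.48 for sh-S1 and -1.70 and -1.97 for sh-S2, a mean of -1.90 ± 0.09 (SD, n = 2, adjusted p = 4.61e-05, limma). AKR1C2 gave -0.49 and -1.29 for sh-S1 and -0.74 and -2.09 for sh-S2, a mean of -1.15 ± 0.38 (SD, n = 2, adjusted p = 0.00157, limma), on a dim probe that was well above background on 1 of 2 arrays of each clone. AKR1C2 entered the test through the Ctrl alone, where it is high, so a lower value in the clones was built into its entry and its mean and p are given as a description. Without it, 12 members and 3 AKR genes were called lower. AKR1B10 stayed closer to 0, at -0.50 and -0.74 for sh-S1 and -0.47 and -0.57 for sh-S2. In A2780s the 5 genes lay between -0.44 and 0.42 on single arrays.

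The AKR1C genes are close paralogs, so the probes themselves are shown for AKR1C1 and AKR1C3, the pair with the largest ratios. They read the same stretch of their genes, shifted by 19 bases, and 37 of the 41 overlapping bases are identical (90.2%). Capitals mark the 4 that differ.
AKR1C1, chr10:5018064-5018123, hg19, plus strand: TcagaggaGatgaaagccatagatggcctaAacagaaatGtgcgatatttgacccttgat
AKR1C3, chr10:5147789-5147848, hg19, plus strand: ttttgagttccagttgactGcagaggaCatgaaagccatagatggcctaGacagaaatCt
The AKR1C2 probe overlapped neither at more than 43.4% identity, which compares the probes and not the transcripts they bind. Signal shared among AKR1C1, AKR1C2 and AKR1C3 was not tested, so the division of the fall among them is uncertain.

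Among the 5 quinone and xenobiotic genes, CBR1 fell in SKOV3 and UGDH and OSGIN1 were higher in A2780s. CBR1, a carbonyl reductase outside the AKR family, stood at -2.57 and -3.62 for sh-S1 and at -2.50 and -3.30 for sh-S2, a mean of -3.0 ± 0.14 (SD, n = 2, adjusted p = 1.12e-05, limma), and read -0.12 and 0.15 in A2780s. OSGIN1, an oxidative stress induced growth inhibitor, gave 1.00 and 0.80 in A2780s and, in SKOV3, -0.16 and -0.19 for sh-S1 and 0.07 and 0.03 for sh-S2. UGDH, which makes the sugar donor of glucuronidation, read 0.50 and 0.69 in A2780s, at the 1.5-fold limit, while in SKOV3 it gave -0.49 and -1.20 for sh-S1 and -0.59 and -0.68 for sh-S2. NQO1, the quinone reductase often used as a readout of NRF2, gave -0.04 and -0.11 for sh-S1, -0.24 and 0.46 for sh-S2, and 0.36 and 0.29 in A2780s, called in neither line.

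Of the 3 enzymes that remove superoxide and peroxide, SOD2 alone was called. SOD2, the mitochondrial superoxide dismutase, stood at -1.78 and -1.92 for sh-S1 and at -1.78 and -1.70 for sh-S2, a mean of -1.79 ± 0.08 (SD, n = 2, adjusted p = 5.65e-05, limma), while its dim other probe, which was not tested, gave 0.05. In A2780s SOD2 read -0.05 and -0.12. SOD1 and CAT, the cytosolic dismutase and catalase, had means of -0.55 and 0.12 in SKOV3 and of -0.01 and -0.33 in A2780s. Over all roles, 12 members were called in none of the comparisons, the one between the Ctrl RNAs of the lines included.

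**Figure D3:**
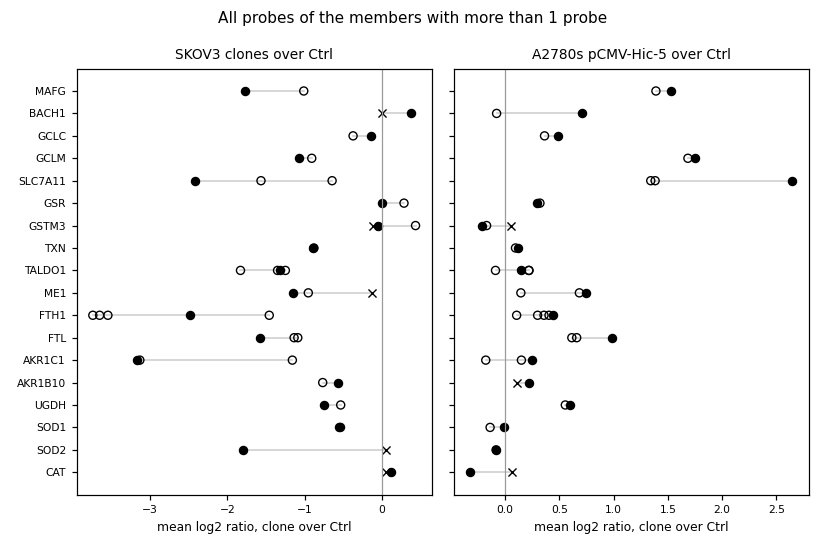
Mean log2 ratio of clone over Ctrl (horizontal axis) for every probe of the members with more than 1 probe, in SKOV3 (left) and A2780s (right). Filled circles are the brightest probe, open circles other tested probes and crosses probes too dim to be tested. The FTH1 probes spread from -3.74 to -1.46 and the SLC7A11 probes from -2.41 to -0.64 in SKOV3. The SLC7A11 probe at -0.64 and the AKR1C1 probe at -1.16 entered in SKOV3 through the Ctrl alone. The SLC7A11 probes other than the brightest entered in A2780s through pCMV-Hic-5 alone.

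The Ctrl RNAs of the lines were compared next, by log2 levels after loess and Aquantile normalization, with each dye weighted equally. Levels can be compared between RNAs for 1 probe but not between genes. There is 1 Ctrl RNA per line and the lines were hybridized on different slides, so line and slide cannot be told apart and no test was made. A member was called where the means differed by at least 2-fold and the arrays of the lines did not overlap. By that rule 13 members were lower and 3 higher in the A2780s Ctrl, against 10.6% and 8.58% of 20670 genes.

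All 5 aldo-keto reductases were lower in the A2780s Ctrl. AKR1C3 stood between 14.76 and 15.88 on the 4 SKOV3 arrays and at 9.64 and 9.58 on the A2780s arrays, a difference of -5.65. AKR1C1 (13.82 to 14.11 against 11.07 and 11.12) and AKR1B1 (14.27 to 15.04 against 11.31 and 11.48) differed by -2.86 and -3.28. AKR1C2 stood between 8.00 and 8.92 against 7.04 and 6.92, and AKR1B10 between 7.74 and 8.81 against 7.01 and 7.32. For each of them the SKOV3 Ctrl held the highest level of the 5 RNAs.

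SLC7A11 differed more than any member but AKR1C3, with 9.62 to 11.29 on the SKOV3 arrays against 6.67 and 6.55, a difference of -4.05. CBR1 stood between 12.71 and 13.02 against 10.86 and 10.42, and FTH1 between 16.63 and 17.82 against 14.96 and 15.43. MAFG, SOD2, TALDO1, TXN and UGDH differed by -1.93, -1.63, -1.11, -1.05 and -1.05. Their lowest SKOV3 Ctrl arrays stood above both A2780s Ctrl arrays in each case, with MAFG at 13.50 to 14.23 against 11.81 and 11.94 and SOD2 at 12.01 to 12.21 against 10.43 and 10.52. TALDO1 lay at 14.70 to 15.46 against 14.02 and 13.81, TXN at 15.35 to 16.09 against 14.87 and 14.52, and UGDH at 10.09 to 10.54 against 9.31 and 9.29, a narrower separation.

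The 3 members higher in the A2780s Ctrl were GSTA4, HMOX1 and NQO1. GSTA4 read 11.11 and 11.37 against 8.07 to 9.41 in the SKOV3 Ctrl, a difference of 2.50. HMOX1 read 13.44 and 13.95 against 12.18 to 12.54, and NQO1 11.13 and 10.84 against 9.55 to 10.14. HMOX1 was thus higher in the A2780s Ctrl than in the SKOV3 Ctrl, and its level in pCMV-Hic-5, 16.27, was the highest of the 5 RNAs.

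**Figure D4:**
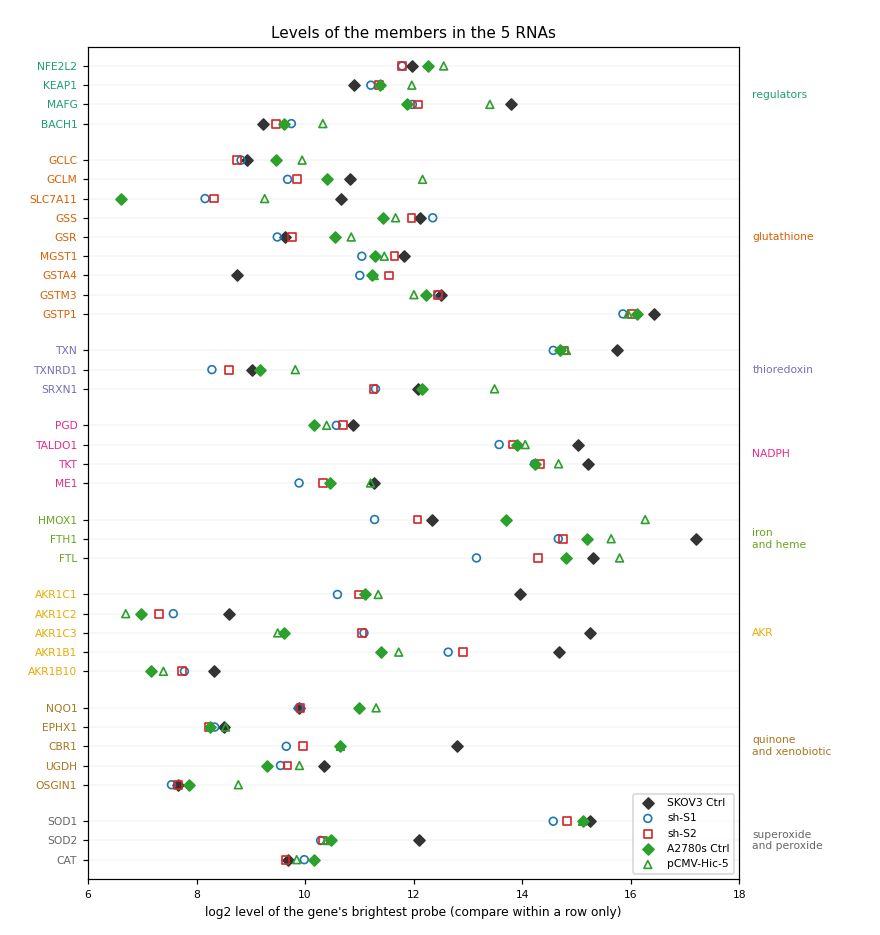
Log2 level of the brightest probe of each member (horizontal axis) in the SKOV3 Ctrl, sh-S1, sh-S2, A2780s Ctrl and pCMV-Hic-5 RNAs, averaged over dyes, with members grouped by role. Values are to be compared within a row. The sh-S1 and sh-S2 symbols lie close together, and for GSTA4, MAFG and SOD2 they lie by the A2780s Ctrl and away from the SKOV3 Ctrl.

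Levels of all 5 RNAs were then set side by side, with the SKOV3 Ctrl entering both the clones' ratios and the Ctrl comparison. The RNA labelled sh-S1 lay within 2-fold of the SKOV3 Ctrl for 20 members and within 2-fold of the A2780s Ctrl for 29, and that labelled sh-S2 for 24 and 31 of the 36. Over all genes the shares were 92.91% and 90.07% for sh-S1 and 92.35% and 92.02% for sh-S2. MAFG, by its brightest probe, stood at 13.80 in the SKOV3 Ctrl, at 11.98 and 12.08 in the clones and at 11.87 in the A2780s Ctrl. Its other probe read 10.84, 9.72, 9.93 and 10.20 in the same order. That probe was not called between the Ctrl RNAs (-0.64). GSTA4 stood at 8.74 in the SKOV3 Ctrl, at 11.01 and 11.55 in the clones and at 11.24 in the A2780s Ctrl. This nearness did not hold for every member, as AKR1C3 and SLC7A11 lay 1.44 to 1.72 log2 units above the A2780s Ctrl in the clones, HMOX1 differed from it by -2.41 and -1.62, and NQO1, at 9.88 and 9.92, stayed at the 9.88 of the SKOV3 Ctrl. TGFB1I1 also stayed at the SKOV3 Ctrl, with levels of 8.22 there, 8.45 in sh-S1, 8.06 in sh-S2 and 12.8 in the A2780s Ctrl.

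Beyond the members, a list of 59 other genes of the NRF2 pathway was read, 58 of them on the array. In SKOV3, 50 were tested, of which 2 rose and 7 fell, with a median of 0.02. GSTT2, a glutathione transferase, and CBS, which begins the conversion of homocysteine to cysteine, rose to means of 2.34 and 1.16. TXNIP, the thioredoxin inhibitor, fell furthest, to -3.42, followed by UGT1A6, ABCC3, SOD3, SLC48A1, SQSTM1 and SLC3A2 with means from -1.84 to -1.01. In A2780s, 53 were read and 8 were higher, with none lower and a median of 0.13. CHAC1, which degrades glutathione, gave 2.31, and SQSTM1, SLC3A2, NFE2L1, CTH, MAFF, IDH1 and AKR1A1 gave 0.72 to 1.21. SQSTM1, the autophagy receptor that binds KEAP1, and SLC3A2, the heavy chain that pairs with SLC7A11, were called lower in SKOV3 and higher in A2780s.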

How the data were processed

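RNA of 3 modified clones and of the Ctrl clones of their lines was hybridized in 2 colours on 6 Agilent Whole Human Genome arrays. The authors deposited spot intensities in both dyes from Feature Extraction, not normalized (version 10.7.3.1 in the file headers, 8.5.1.1 in the submitters' processing notes). The deposited files also hold processed intensity values and log10 ratios of Cy5 over Cy3 from that software, and the series values are these log10 ratios, not turned on dye-swapped arrays. The paper's methods do not name the background correction or the normalization.

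Here, background was corrected by normexp (offset 50) in limma 3.58.1 (R 4.3.3), and control spots, outlier flags and spots with a local background over 1000 (40 on 1 A2780s array) were left out. Ratios were normalized by loess, averaged per probe, expressed as log2 and turned so that a positive value is higher in the clone (the deposited ratios were not). In SKOV3, clone means were tested against 0 with lmFit and eBayes over 25125 probes (Benjamini-Hochberg), without the spread of the single Ctrl. A2780s probes (30531) were read without a test. A probe needed signal well above background in its line, on every array for the Ctrl or on both arrays for a clone, and all 36 members met this. Precision is limited by signal over background and by array number. Both calling rules were also tested on simulated data. Of 64 member probes, 58 carry a RefSeq accession of the reference, each with the member's symbol. Values on every array are given for members called in any comparison and the 4 regulators, other members are given by means or ranges, and of the wider list the called genes are named. The members and lists were chosen with earlier results of these data known. Exon and UTR positions of the probes were not analysed here. Alternatives covered the background fit, normalization, dye, dim filter, averaging over probes, deposited log ratios, each clone alone and the fold rule.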

Additional observations from a re-analysis of the deposited data

Results flagged for a closer look

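For OSGIN1, both sh-S1 arrays had a negative log2 ratio (mean -0.18) and both sh-S2 arrays a positive one (mean 0.05). The difference between the clones was not tested, and OSGIN1 was called in neither.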

How the results depend on the processing

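Every called member kept its direction under each alternative run. In SKOV3, processed signals and the series value table moved the AKR median from -1.90 to -3.44, AKR1C2 from -1.15 to -3.64, SLC7A11 from -2.41 to -4.10 and GSTA4 from 2.54 to 3.42, and by dye AKR1C3 ranged from -5.15 to -3.23 and FTH1 from -3.26 to -1.71. Averaged over probes, SLC7A11 was -1.54 and AKR1C1 -2.49. In that line the counts called lower and higher stayed within 1.5 times, GCLM was no longer called with the clone in Cy5 only (-0.83) or as a mean over its probes (-0.99), and AKR1C2 was not called with the clone in Cy5 only (-0.62). The uncalled NFE2L2 (0.47 with the clone in Cy3 only) and BACH1 (-0.057 with the clone in Cy5 only) changed sign. By fold alone, leaving out a clone gave 1 (without sh-S1, where ME1 at -0.90 and FTL at -0.96 were lost) to 2 NADPH genes and 1 to 3 iron and heme genes, and without sh-S2 GCLM (-0.94) and AKR1C2 (-0.89) were lost. In A2780s, Feature Extraction's processed signals and the series value table each called 1 member lower, the AKR gene AKR1C2, and the mean over all probes called 0 NADPH genes. The SLC7A11 ratio there was 1.75 with normexp fitted on all spots and 3.43 with processed signals. A fold of 1.5 on each array left 8 of the 12. Between the Ctrl RNAs, median-centred processed signals called 8 members higher, 4 glutathione genes and 0 NADPH genes, quantile normalization called 0 NADPH genes and Ctrl in Cy3 only called 2. MAFG (-0.30) was no longer called between the Ctrl RNAs with median-centred processed signals, nor SOD2 (-0.65) as a mean over all probes. TXN, TALDO1 and UGDH were lost there with quantile normalization and with median-centred processed signals, and TXN and UGDH also as a mean over all probes. Ctrl in Cy3 only lost TXN and TALDO1, and Ctrl in Cy5 only lost AKR1B10 and UGDH. The causes were not tested. No pairing beyond that of clone and Ctrl on each array was possible, because the labels number no replicates. A slide block could not be fitted, since each line lies on 1 slide.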
